A study of Mus musculus with 12 samples.

Results

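Retrotransposon restriction factors are cellular proteins that limit retrotransposons, for example by acting on their RNA or their reverse-transcribed DNA. The genes described here are Apobec3, Zc3hav1, Mov10, Samhd1, Trex1, Rnaseh2a, Rnaseh2b, Tex19.1 and Tex19.2, 9 genes chosen by name from a deposited table of 35666 genes. The table has a row for 8 of them, and Trex1, a DNA exonuclease gene, was not analysed here. Expression was compared in mouse gonocytes, male germ cells that have not yet become spermatogonia, at postnatal day 0 (P0). The heterozygous group (het) holds 3 samples of genotype Morc1 (+/-) and the knockout group (KO) holds 3 samples of genotype Morc1 (-/-). All samples came from mice with the Mvh-Venus transgene, a germ cell reporter driven by the Mvh gene, so the controls carry that transgene and 1 mutant Morc1 allele. Samples of the same genotypes at P3 were not analysed here. MORC1 is a germ cell ATPase required for silencing of transposons in the male germline.

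Retrotransposons copy themselves through an RNA that is reverse transcribed into DNA, and each step can be blocked. APOBEC3 deaminates cytidines in the new DNA strand and can hinder reverse transcription. ZAP, the product of Zc3hav1, binds RNA rich in CpG and directs it to decay, while the helicase MOV10 binds retrotransposon RNA. SAMHD1 hydrolyses the deoxynucleotides that reverse transcription consumes, and RNase H2 cleaves RNA in RNA-DNA hybrids. In male germ cells TEX19.1 limits LINE retrotransposons, acting with the ubiquitin ligase UBR2, and its paralog TEX19.2 lies beside it on the chromosome.

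Values are given below for replicates 1, 2 and 3 in that order. The libraries held 28363683 to 32816861 gene reads each. Morc1 had a mean of 6286 ± 1874 normalized counts in het and 1499 ± 255 in KO (SD, n = 3), and the highest KO library was below the lowest het library. The closest replicates were het replicates 1 and 2, whose reads differed by a mean chi-square of 10.02 per gene. Counting noise gives about 1 on average, so no library was counted as a duplicate. By this measure the libraries did not group by genotype. KO replicate 1 was nearer het replicates 1 and 2 (24.6 and 21.4) than KO replicates 2 and 3 (64.0 and 66.0). Het replicate 3 was nearest KO replicate 2 (46.3). The cause was not tested. The labels do not say whether the samples of a group came from separate animals. The p-values thus rest on the spread between these samples, which may not be a spread between animals. Germ cell markers (Ddx4, Dazl, Pou5f1, Nanos2, Nanos3, Dnd1) summed to 69526 to 99579 normalized counts in het and 79223 to 106160 in KO. Het replicate 3 stood apart with a Leydig cell marker sum of 24921, against 776 and 1079 in the other het libraries and 510 to 1075 in KO. Sertoli cell markers summed to 11461 to 21426 in het and 8203 to 10054 in KO. In bulk RNA, fewer cells of a type and less RNA per cell cannot be told apart.

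The 8 genes differed widely in level, with the Tex19 pair at the top and Apobec3 at the bottom. Levels of different genes are given as normalized counts per kb of annotated exon, the union of all transcripts. Tex19.1 was highest, at 20551 ± 5945 normalized counts per kb in het (SD, n = 3), above 99.9% of the genes tested. Tex19.2 followed with 4535 ± 934 per kb. Mov10 had 1137 ± 66.3 per kb. Rnaseh2b had 671 ± 43.5, Samhd1 539 ± 66.0 and Rnaseh2a 524 ± 8.60 per kb. Samhd1 and Rnaseh2a differed by less than the spread of Samhd1 over the het libraries. Zc3hav1 had 267 ± 86.5 per kb, above 76.1% of the genes tested. Apobec3 was lowest with 22.7 ± 3.89 per kb, above 26.1% of the genes tested. Its annotated exons include long ones, and per kb of its longest transcript of 3053 bases it had 70.4 in het. It was the lowest of the 8 by this length too, while Samhd1 (1256 per kb) then stood above Rnaseh2b (840 per kb).

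**Figure D1:**
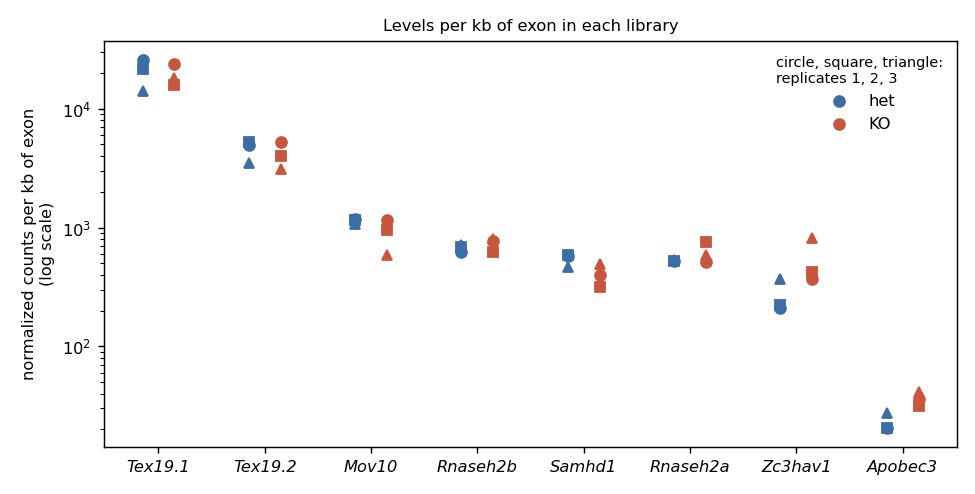
Normalized counts per kb of exon (log axis) of the 8 restriction factor genes in each of the 6 libraries, ordered by the het mean. Het libraries are blue, KO libraries red, and circles, squares and triangles are replicates 1, 2 and 3. Tex19.1 and Tex19.2 stand at the top and Apobec3 at the bottom in every library.

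To ask whether gonocytes without MORC1 changed the expression of these genes, KO and het were compared with limma across 26005 genes, and p-values were adjusted over all of them by Benjamini-Hochberg. Of the 8 genes, 0 passed an adjusted p under 0.05 in either direction. The same fit called 0.473% of all tested genes, 0.431% higher and 0.0423% lower in KO. An unadjusted p under 0.05 was found for 2 of the 8 (0 to 3 in the alternative fits), Apobec3 and Zc3hav1, both higher in KO. Over all tested genes that share was 6.86%, and 4.42% counting only genes higher in KO. In these 2 genes every KO library was above every het library, and the other 6 had overlapping genotypes. Such a separation was found in 12.7% of all tested genes, with KO above in 7.17% and KO below in 5.57%. The log2 fold changes of the 8 genes had a median of 0.02 and ran from -0.44 to 0.96, with 4 positive and 4 negative. The median over all tested genes was -0.02. On reads recovered from the normalized values, edgeR's quasi-likelihood test and DESeq2 each called 0 of the 8 at an adjusted p under 0.05. Over all genes edgeR called 0.494% (0.463% higher and 0.0306% lower in KO) and DESeq2 1.78% (1.53% higher and 0.249% lower).

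**Figure D2:**
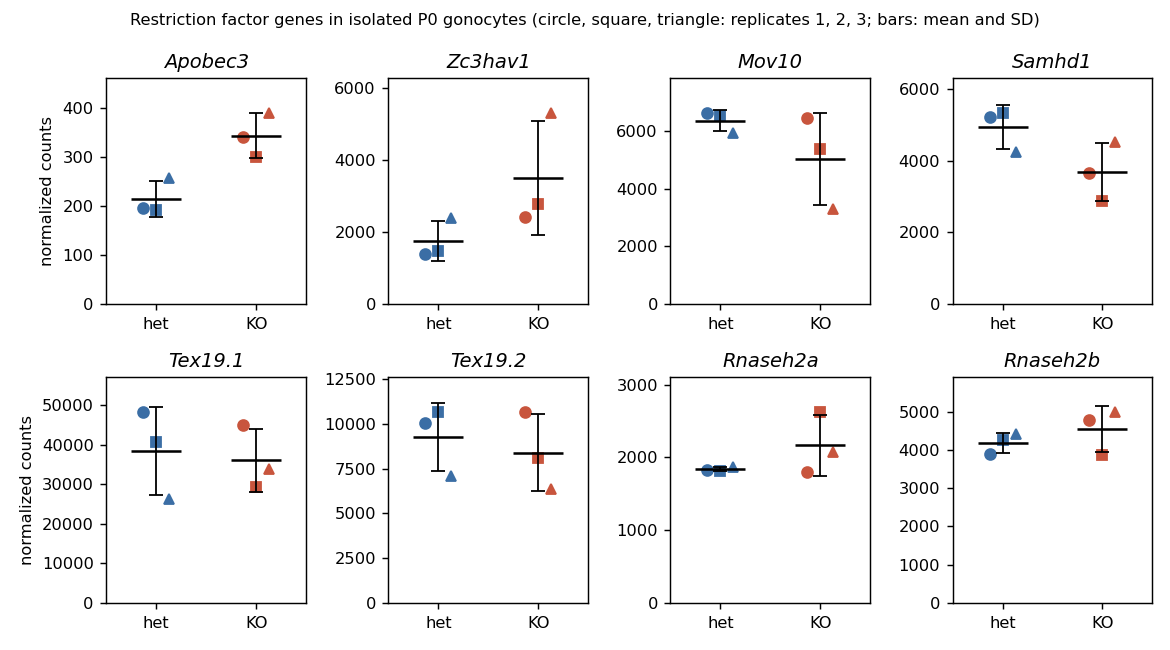
Normalized counts of the 8 genes in het (blue) and KO (red) libraries, with 1 panel per gene and each axis starting at 0. Circles, squares and triangles are replicates 1, 2 and 3, horizontal bars are means and error bars are SD (n = 3). Apobec3 and Zc3hav1 are the 2 genes in which all KO libraries lie above all het libraries.

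Apobec3 (ENSMUSG00000009585, plus strand of chromosome 15 from 79891659 to 79915906, GRCm38) encodes the single APOBEC3 cytidine deaminase of the mouse. Its normalized counts were 195, 192 and 257 in the het libraries. In the KO libraries they were 341, 300 and 391. The lowest KO library was thus above the highest het library, and within each genotype replicate 3 was highest. The means were 215 ± 36.8 in het and 344 ± 45.7 in KO (SD, n = 3). By exact permutation (two-sided) p was 0.1, the smallest that 3 against 3 libraries can give. On the log2 scale KO was higher by 0.68 (SE 0.27, limma adjusted p 0.653). The 95% interval of the fold ran from 1.05 to 2.44 and is not corrected for the number of genes. Leaving out single libraries gave log2 fold changes from 0.58 to 0.82. The smallest value rests on 199 reads, with an exact Poisson 95% interval from 172 to 229 that covers counting error only. Parts of the longest Apobec3 transcript matched 1614 other genes. The longest match, to Nek4, was 85.8% identical over 6.55% of the transcript. Whether shared sequence affected its counts was not tested.

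Zc3hav1 (ENSMUSG00000029826, minus strand of chromosome 6 from 38305286 to 38354603) encodes ZAP. Its normalized counts were 1372, 1458 and 2389 in the het libraries. They were 2408, 2772 and 5298 in the KO libraries. KO replicate 1 was just above het replicate 3, and KO replicate 3 was far above all others. The means were 1740 ± 564 in het and 3493 ± 1574 in KO (SD, n = 3), and by exact permutation p was 0.1. KO was higher by 0.96 on the log2 scale (SE 0.33, limma adjusted p 0.499), a fold of 1.95 with an uncorrected 95% interval from 1.17 to 3.24. Without KO replicate 3 it was 0.62, and without het replicate 3 it was 1.21. Genes of ZAP cofactors had overlapping genotypes. The log2 fold change was -0.05 for Trim25, a ubiquitin ligase, and 0.28 for Khnyn, an endonuclease (limma adjusted p 0.987 and 0.926). The level of Zc3hav1 per kb was 1.02, 0.978 and 1.45 times that of Trim25 in het and 1.60, 1.52 and 4.87 times in KO, without overlap (exact permutation p = 0.1). The ratio to Khnyn overlapped, with 4.44, 5.48 and 6.79 in het and 5.62, 5.88 and 20.8 in KO (exact permutation p = 0.4). The neighbouring paralog Zc3hav1l had 527, 475 and 493 normalized counts in het and 542, 1058 and 559 in KO, also without overlap, with a log2 fold change of 0.46 (SE 0.30, limma adjusted p 0.858). Without KO replicate 2, its highest library, that change was 0.15. The ratio of Zc3hav1 to Zc3hav1l overlapped between genotypes (exact permutation p = 0.6). Parts of the longest Zc3hav1 transcript matched 1641 other genes, with the longest match, to Rock2, 87.3% identical over 4.17% of the transcript. An effect of shared sequence on the Zc3hav1 counts was not tested either.

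Both genes are also expressed in immune cells, and markers of those cells were given by a list of 7 genes (Ptprc, Csf1r, Adgre1, Cd68, Tyrobp, C1qa, Lyz2). Their normalized counts summed to 466, 367 and 1460 in het replicates 1 to 3 and to 422, 856 and 546 in KO. Het replicate 3 had the highest sum and was also the het library with the most Apobec3 and Zc3hav1. In KO the order differed. KO replicate 2 had the highest KO sum but the lowest KO Apobec3 (300), and KO replicate 3 had the most of both genes (391 and 5298). Of the 7 markers, 6 had negative log2 fold changes and 0 were called. Those of Tyrobp, C1qa and Lyz2 were near 0 (-0.07, -0.01 and -0.02). The 1 positive change was the largest in size, 1.13 for Adgre1 (limma adjusted p 0.794). Adgre1 had 41.0, 55.1 and 185 normalized counts in het and 166, 105 and 256 in KO, with overlapping genotypes. The part of immune cells in the levels of Apobec3 and Zc3hav1 was not tested.

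The promoter windows of these 2 genes, shown because they were the only ones of the 8 with separated genotypes, were taken from RefSeq (GRCm38.p6) and cover 250 bases before and 50 bases after the annotated start. They were searched on both strands for GAAA followed after any 2 bases by a second GAAA, the core of the interferon-stimulated response element, which 3.44% of all 32851 windows hold. Apobec3 has 2 windows in the table, at 2 annotated starts, and the first along its strand is shown. Capitals mark the match.
Apobec3, chr15:79892158-79892457, plus strand: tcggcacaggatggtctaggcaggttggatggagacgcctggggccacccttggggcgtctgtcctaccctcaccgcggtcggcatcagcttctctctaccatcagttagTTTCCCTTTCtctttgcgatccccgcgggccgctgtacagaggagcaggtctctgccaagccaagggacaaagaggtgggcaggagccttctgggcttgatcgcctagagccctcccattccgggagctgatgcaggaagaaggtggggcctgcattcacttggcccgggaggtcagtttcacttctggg
Zc3hav1, chr6:38354554-38354853, minus strand: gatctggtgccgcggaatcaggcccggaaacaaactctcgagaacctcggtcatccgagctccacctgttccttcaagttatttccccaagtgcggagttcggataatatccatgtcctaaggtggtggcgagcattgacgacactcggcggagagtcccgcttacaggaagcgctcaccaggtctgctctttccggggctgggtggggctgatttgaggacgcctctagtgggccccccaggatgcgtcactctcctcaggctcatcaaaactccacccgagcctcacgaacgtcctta
The Apobec3 window shown holds 1 match, TTTCCCTTTC on its strand. The other Apobec3 window (chromosome 15 from 79894773 to 79895072) and the Zc3hav1 window hold none. Among 11 windows of the 8 genes of the set with a RefSeq window (Trex1 included, Rnaseh2b not in the table), the Apobec3 window shown was the only one with a match. A match is a description of the letters and not of a bound site.

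Mov10 (ENSMUSG00000002227, minus strand of chromosome 3 from 104794836 to 104818563) encodes the RNA helicase. It was measured at 6647, 6526 and 5951 normalized counts in the het libraries. The KO libraries had 6465, 5374 and 3299. KO replicate 1 lay within the het range and KO replicate 3 was the lowest library. The means were 6375 ± 372 and 5046 ± 1608 (SD, n = 3), and by exact permutation p was 0.2. Limma gave a log2 fold change of -0.39 (SE 0.26, adjusted p 0.859), and without KO replicate 3 it was -0.11. Its 95% interval ran from -0.96 to 0.18. The pseudogene Gm7357 was 93.8% identical to the longest Mov10 transcript over 81.0% of its length, so reads could be split or left uncounted. Gm7357 itself had 4.77 to 33.2 normalized counts. An effect of the shared sequence on the Mov10 counts was not tested.

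Mov10l1, the germ cell paralog of Mov10 that binds piRNA precursors, is given beside it as the largest difference among the paralogs. It had 12593, 12337 and 8582 normalized counts in het and 23526, 15170 and 27099 in KO, without overlap. Its log2 fold change was 0.95 (SE 0.26, limma adjusted p 0.252), and DESeq2 alone called it (adjusted p 0.0397). Per kb of exon, Mov10l1 stood at 2.34 ± 0.349 times the level of Mov10 in the het libraries and at 6.56 ± 3.90 times in KO (SD, n = 3). The ratio was 4.88, 3.78 and 11.01 in KO replicates 1 to 3 and at most 2.54 in het (p = 0.1 by exact permutation). Since the Mov10l1 counts alone did not overlap, the separation of the ratio adds no independent evidence.

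Samhd1 (ENSMUSG00000027639, minus strand of chromosome 2 from 157097533 to 157135265) encodes the deoxynucleotide hydrolase. The het libraries had 5228, 5332 and 4239 normalized counts of it, and the KO libraries 3647, 2882 and 4511. KO replicate 3 exceeded het replicate 3, so the genotypes overlapped, although KO replicates 1 and 2 were below all het libraries. The means were 4933 ± 603 and 3680 ± 815 (SD, n = 3), with p = 0.2 by exact permutation. Limma gave a log2 fold change of -0.44 (SE 0.22, adjusted p 0.799; 95% interval from -0.94 to 0.06). It was -0.27 without KO replicate 2, and -0.70 without replicate 3 of both genotypes. Among 7 tested genes that supply deoxynucleotides (Rrm1, Rrm2b, Dut, Tk1, Dck, Tyms, Dctd), 0 were called and 0 had an unadjusted limma p under 0.05. Their median log2 fold change was -0.03. The smallest p values belonged to Tyms, thymidylate synthase, with a log2 fold change of 0.31, to Tk1, thymidine kinase, with -0.32, and to Dut, the dUTP hydrolase, with -0.25.

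**Figure D3:**
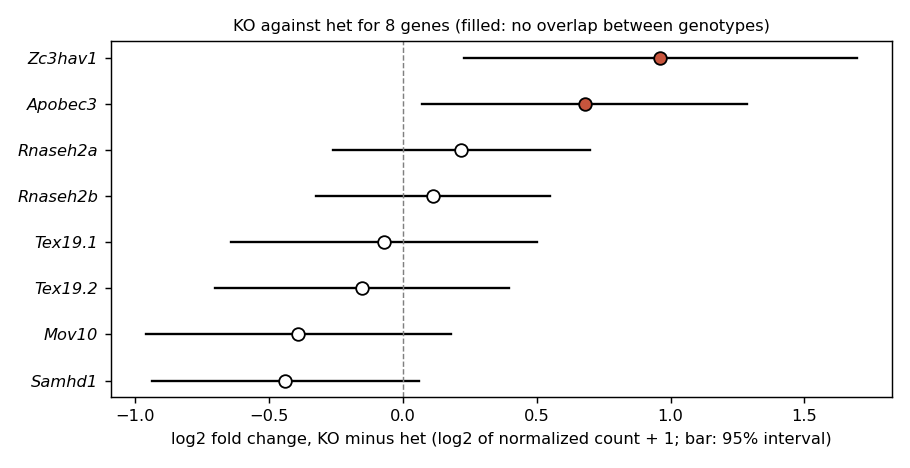
Log2 fold change of KO against het for the 8 genes (limma on log2 of normalized count + 1), with 95% intervals that are not corrected for the number of genes tested. Filled points mark the genes whose libraries do not overlap between genotypes, Zc3hav1 (0.96) and Apobec3 (0.68), and the intervals of the other 6 genes include 0.

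Tex19.1 (ENSMUSG00000039329, plus strand of chromosome 11 from 121146143 to 121148319) was the most abundant gene of the set. The het libraries had 48296, 40735 and 26385 normalized counts. For KO the values were 44842, 29422 and 33880. All KO values fell within the range of the het libraries, and the lowest library was het replicate 3. The means were 38472 ± 11130 and 36048 ± 7935 (SD, n = 3), with p = 0.8 by exact permutation. Its log2 fold change was -0.07 (SE 0.26, limma adjusted p 0.981), and its 95% interval, a fold from 0.640 to 1.41, holds moderate changes in both directions. The sign turned without het replicate 1 (0.11) and without KO replicate 2 (0.063).

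Ddx4, the germ cell gene behind the Mvh reporter, was also lowest in het replicate 3, with 17605 normalized counts, and had 20303.5 in KO replicate 2. Per kb, Tex19.1 stood at 2.73, 2.11 and 2.41 times the level of Ddx4 in het and at 2.49, 2.33 and 1.89 times in KO, with p = 0.5 by exact permutation. Relative to Ddx4 the libraries thus spanned a narrower range for Tex19.1, again with overlapping genotypes. For Tex19.2 the range was not narrower. Per kb, Tex19.2 stood at 0.520, 0.506 and 0.594 times Ddx4 in het and at 0.542, 0.589 and 0.326 times in KO (exact permutation p = 0.8). Ubr2, which encodes the partner of TEX19.1, had 2877 ± 261 normalized counts in het and 3178 ± 275 in KO (SD, n = 3), with a log2 fold change of 0.14 (SE 0.20, limma adjusted p 0.939).

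Tex19.2 (ENSMUSG00000039337, minus strand of chromosome 11 from 121116215 to 121118677) was measured at 10066, 10671 and 7101 normalized counts in het. For KO the values were 10664, 8117 and 6387. Only KO replicate 3 was below the het range. The means were 9279 ± 1911 and 8390 ± 2151 (SD, n = 3), with p = 0.6 by exact permutation. Its log2 fold change was -0.15 (SE 0.25, limma adjusted p 0.948; 95% interval from -0.70 to 0.39), and without KO replicate 3 it was 0.026. Per kb, Tex19.1 exceeded Tex19.2 by 5.24, 4.17 and 4.06 times in het and by 4.60, 3.96 and 5.80 times in KO, with p = 0.7 by exact permutation. The longest Tex19.1 transcript was 89.0% identical to Tex19.2 over 23.7% of its length, so a share of their reads could be assigned to either gene.

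The promoter windows of the 2 paralogs are shown because these genes were the most abundant of the set and Tex19.1 is known as a gene whose promoter is methylated in somatic cells. They come from RefSeq (GRCm38.p6), with each CG dinucleotide in capitals.
Tex19.1, chr11:121145893-121146192, plus strand: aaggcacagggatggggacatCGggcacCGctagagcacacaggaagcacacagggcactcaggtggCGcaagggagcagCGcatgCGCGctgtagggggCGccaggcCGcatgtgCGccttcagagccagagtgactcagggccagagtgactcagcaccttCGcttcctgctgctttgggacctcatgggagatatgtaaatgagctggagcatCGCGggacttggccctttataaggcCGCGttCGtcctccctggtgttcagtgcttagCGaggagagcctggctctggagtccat
Tex19.2, chr11:121118628-121118927, minus strand: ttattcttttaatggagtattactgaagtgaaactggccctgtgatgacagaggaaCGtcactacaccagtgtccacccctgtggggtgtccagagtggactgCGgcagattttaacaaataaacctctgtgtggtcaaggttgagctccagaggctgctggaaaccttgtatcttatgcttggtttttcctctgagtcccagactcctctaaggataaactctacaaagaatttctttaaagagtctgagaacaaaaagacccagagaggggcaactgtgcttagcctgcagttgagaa
The Tex19.1 window holds 16 CG dinucleotides and the Tex19.2 window holds 2, against a median of 7 over all windows. DNA methylation was not measured in these samples.

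RNase H2 is built of a catalytic A subunit with B and C subunits. Rnaseh2a (ENSMUSG00000052926, minus strand of chromosome 8 from 84956610 to 84969767) had 1824, 1819 and 1874 normalized counts in het and 1798, 2627 and 2073 in KO. Het values were nearly identical, and KO replicates on both sides of them made the genotypes overlap. Limma gave a log2 fold change of 0.22 (SE 0.22, adjusted p 0.911), which was 0.070 without KO replicate 2 and 0.34 without KO replicate 1. Parts of the longest Rnaseh2a transcript matched 446 other genes. The longest match, to Gm15703, was 93.8% identical over 30.2% of the transcript, and its effect on the Rnaseh2a counts was not tested. Rnaseh2b (ENSMUSG00000021932, plus strand of chromosome 14 from 62292589 to 62372992) had 3885, 4265 and 4410 normalized counts in het and 4778, 3867 and 5001 in KO. KO replicate 2 was the lowest of the 6 libraries and KO replicate 3 the highest, so the genotypes overlapped. Its log2 fold change was 0.11 (SE 0.20, limma adjusted p 0.951; 95% interval from -0.32 to 0.55). The C subunit gene Rnaseh2c, no member of the chosen set, had 520 ± 101 normalized counts in het and 523 ± 123 in KO (SD, n = 3). Its log2 fold change was below 0.01 in size (limma adjusted p above 0.99).

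The proportions of the subunit genes overlapped between genotypes. Per kb, Rnaseh2a stood at 1.77 ± 0.322 times the level of Rnaseh2c in het and at 2.04 ± 0.156 times in KO (SD, n = 3), and p was 0.3 by exact permutation. For Rnaseh2b the ratios to Rnaseh2c were 2.25 ± 0.293 and 2.52 ± 0.829 (SD, n = 3; exact permutation p = 0.6). On the same strand, Rnaseh2a overlaps Gm49661 by 1756 bases, and Apobec3 overlaps D730005E14Rik, which had a mean of 15.3 normalized counts, by 1462 bases. On the opposite strand, Rnaseh2a overlaps Prdx2 by 181 bases, Rnaseh2b overlaps Dleu7 by 459 bases, and Apobec3 also overlaps Cbx7. Whether the counting used strand is not given in the sources used here.

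Genes around the set were examined in 5 lists. Of 20 partners and cofactors, 0 passed limma's adjusted p and 0 had an unadjusted p under 0.05, with a median log2 fold change of 0.06. The smallest p values among them belonged to the histone chaperone gene Set (0.56, and 0.12 without KO replicate 3), the RNA decay gene Ttc37 (-0.38) and the RNA-binding protein gene Igf2bp1 (0.33). Of 9 tested paralogs 0 passed and 1 had an unadjusted limma p under 0.05, which was Mov10l1. After it the smallest p values were those of Zc3hav1l and of Rnaseh1, the other RNase H gene, with a log2 fold change of -0.37. The exonuclease gene Trex2 was in the table but under the minimum mean for testing.

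Other restriction genes and the sensing pathway each held 1 called gene. Of 19 tested genes of the first list, Fancd2 was called, and the median log2 fold change was 0.03. Fancd2, which encodes a DNA repair protein of the Fanconi anaemia pathway, had 1506, 1790 and 867 normalized counts in het and 6317, 5367 and 6303 in KO. It rose by a log2 fold change of 2.17 (SE 0.28, limma adjusted p 0.0101). The call was lost without KO replicate 1 or 3, at adjusted p-values of 0.0921 and 0.0805. Of 16 tested genes of nucleic acid sensing and the interferon response, Ifi44 was called. Of the 16, 4 had an unadjusted limma p under 0.05, against 6.86% of all tested genes. The median log2 fold change was 0.25, with 12 of 16 positive against 12588 of all 26005 tested genes. Beside Ifi44, the RNA sensor genes Ddx58 (0.52) and Ifih1 (0.65) had every KO library above the het libraries, as had 7.17% of all tested genes. The antiviral gene Rsad2 had overlapping genotypes (-0.69). For these 3 genes the limma adjusted p was 0.679, 0.721 and 0.705. Ifi44, an interferon-inducible gene, had 106, 120 and 60.5 normalized counts in het and 557, 331 and 737 in KO (log2 fold change 2.48, SE 0.39, limma adjusted p 0.0251). With the replicate number as a block its limma adjusted p was 0.0800, and leaving out single libraries gave values up to 0.180, with the call lost without het replicate 1 (0.0599), het replicate 3 (0.0553), KO replicate 1 (0.169) or KO replicate 3 (0.180). Without replicate 3 of both genotypes it was not called either (0.174).

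**Figure D4:**
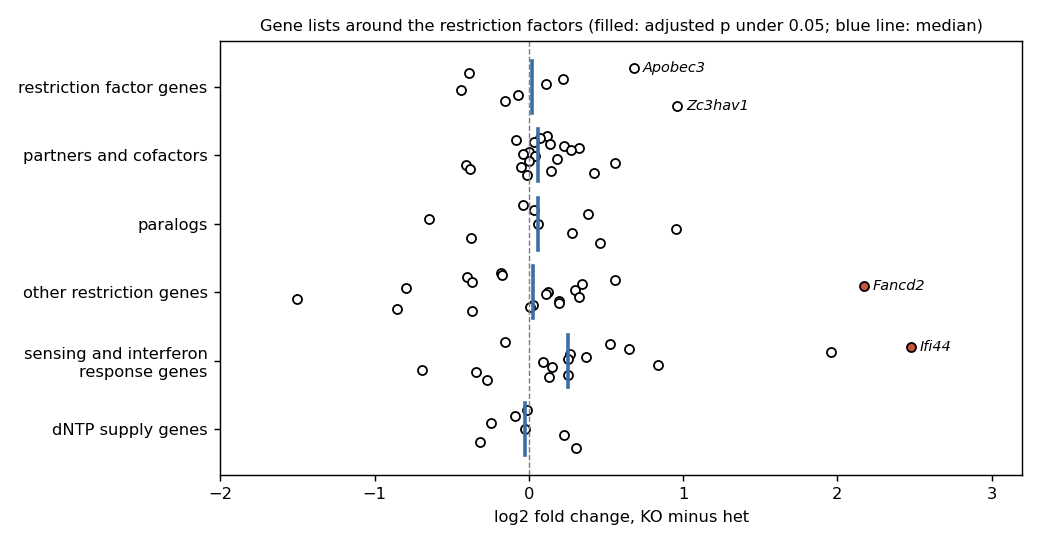
Limma log2 fold changes of the tested genes of the restriction factor set and of 5 lists around it, with 1 point per gene. Filled points passed an adjusted p under 0.05 and blue lines are list medians. Fancd2 (2.17) and Ifi44 (2.48) are the called genes, and Apobec3 and Zc3hav1 are named as the members of the set with an unadjusted p under 0.05.

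Reads on transposable element (TE) copies at the loci of the set were compared last, because 15.6% of the 49781 tested TE copies were called higher in KO in a limma fit over all copies and 0.735% lower. The TE table lists 74 copies within 10 kb of the 9 genes, of which 48 lie within a gene and 14 of those overlap an exon of it. No copy is listed within 10 kb of Trex1. Their median length was 338 bases, against 375 over all listed copies, and the longest had 2381. Of the 74, 15 had a mean of at least 10 normalized counts and were tested, and 0 were called in either direction, with 2 at an unadjusted limma p under 0.05 against 25.6% of all tested copies. Thus 0 of the 9 genes had a copy called higher within 10 kb. Over all tested genes, which do not include Trex1, the share was 6.28%. At that share a count of 0 among 9 genes does not set them apart. Apobec3, Trex1 and Tex19.2 had 0 tested copies, so none of theirs could be called. Apobec3 had 10 listed copies and Zc3hav1 12, but 0 of the former and 1 of the latter reached the minimum mean, so TE reads beside these 2 genes were mostly too few to test.

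The 2 copies with an unadjusted p under 0.05 both lie beside Tex19.1, with lower means in KO. With gene size factors both lost it, at limma p-values of 0.0869 for the downstream copy (log2 fold change -0.88) and 0.0710 for the upstream copy (-1.71). A copy of 836 bases on the minus strand (chromosome 11 from 121151829 to 121152664), downstream of the gene, had 155, 75.2 and 47.9 normalized counts in het and 43.9, 28.6 and 34.2 in KO. Its genotypes did not overlap (log2 fold change -1.21, limma adjusted p 0.132). Without het replicate 3 the copy was called lower (limma adjusted p 0.0330), and without het replicate 1 its log2 fold change was -0.76. A copy of 593 bases upstream of the gene (121142704 to 121143296, minus strand) had 25.3, 7.85 and 34.5 in het and 2.86, 2.32 and 9.41 in KO. Its KO replicate 3 overlapped the het range (log2 fold change -1.98, limma adjusted p 0.156).

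Copies inside the transcribed genes had reads in both genotypes. In Mov10, a copy of 70 bases that overlaps an exon (chromosome 3 from 104801550 to 104801619) had 232, 218 and 109 normalized counts in het and 164, 85.1 and 68.4 in KO (log2 fold change -0.84, limma adjusted p 0.289). In Rnaseh2a, a copy of 77 bases in an exon (chromosome 8 from 84959769 to 84959845) had 332, 335 and 328 in het and 260, 336 and 305 in KO. Of these copies, that of Mov10 was lowest in KO replicate 3, as Mov10 was, and that of Rnaseh2a was nearly level except for a lower value in KO replicate 1. Of the 15 tested copies 14 had a negative log2 fold change, against 49.0% of all tested copies, and their median was -0.78, against 0.03 over all. Scaled by the gene size factors instead, 11 of the 15 were negative, against 35.3% of all tested copies, and the medians were -0.47 and 0.38. The 15 copies come from few loci, with 5 beside Tex19.1, 4 at Samhd1 and 3 at Mov10, so they are not independent. Among those at Mov10, a copy of 578 bases in its flank overlaps an exon of another gene, Capza1 (log2 fold change -0.08). Whether reads of an exonic copy were also counted in its gene is not given in the sources used here.

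**Figure D5:**
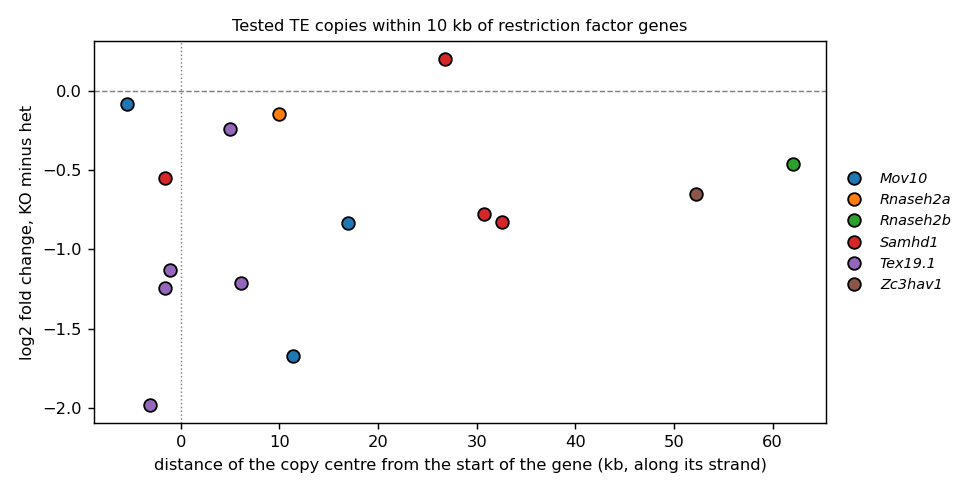
Limma log2 fold change (KO minus het) of the 15 tested TE copies within 10 kb of the restriction factor genes, against the distance of the copy's centre from the start of its gene along the gene's strand (kb). Colours mark the gene, and no copy passed an adjusted p under 0.05. The lowest point, at -1.98, is the copy upstream of Tex19.1.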

How the data were processed

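RNA of the isolated cells was amplified as cDNA from low input before library preparation, per the labels' protocols. Both deposited tables hold a signal: read counts that the authors divided by a size factor in each library, as the gene table's name and the values show, 100% of which were whole multiples of 1 step per column (tolerance 0.01). Per the submitters' processing notes, which give no roles, bcl2fastq 2.20, cutadapt 1.18, HISAT2 2.1.0, featureCounts 1.5.2 and DESeq2 1.26.0 were used with GRCm38. The repeat annotation is not given in the sources used here, and repeat families were not analysed here. Columns were assigned by genotype and replicate number; the stage of the TE columns comes from the table's name. Genes were named and placed with GENCODE M21 (35560 of 35666 matched).

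In R 4.3.3, limma 3.58.1 (eBayes with trend, two-sided) was fitted to log2(value + 1) of all genes, and separately of all TE copies, whose mean reached 10; fold changes on this scale understate the change of low genes. P-values were adjusted by Benjamini-Hochberg. For single values a two-sided exact permutation test over 3 against 3 libraries was used. Alternatives were other pseudocounts, filters, scalings, edgeR 4.0.16 and DESeq2 1.42.0 on recovered reads (at least 60 over the 6 libraries), a replicate block and leaving out libraries; leaving out replicate 3 of both genotypes and a 20 kb window were added after seeing the data. Transcripts were compared with blastn 2.17.0. The fit was tested on simulated data. The genes and lists were chosen with earlier results of these data known. All 9 genes are named, with Rnaseh2c, Ubr2, Morc1, the called genes of each list or, where there were none, its 3 genes with the smallest p, and TE copies that were called. Trim25, Khnyn, Ddx58, Ifih1, Rsad2 and the TE copies named were chosen after their values were seen. Shfl, Ifit3 and Rrm2 of the lists were not analysed here.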

Additional observations from a re-analysis of the deposited data

How the results depend on the processing

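The count of 0 called restriction factor genes held in each of the 16 alternatives run, with smallest adjusted p-values from 0.171 (DESeq2) to 0.9996 (without het replicate 1). Apobec3, Zc3hav1, Mov10, Samhd1, Rnaseh2a and Rnaseh2b kept their direction in all 16. Without single libraries Tex19.1 ran from -0.32 to 0.11, turning without het replicate 1 (0.11) and KO replicate 2 (0.063), and Tex19.2 from -0.34 to 0.026, turning without KO replicate 3. Rnaseh2c, near 0, turned to 0.0098 with quantile normalization, 0.0068 with edgeR and 0.0097 with DESeq2, to 0.14 without het replicate 3, 0.18 without KO replicate 1 and 0.12 without both libraries numbered 3, and Dut to 0.097 without both libraries numbered 3 (-0.57 to -0.045 without single libraries).

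Genes called higher over the whole table (112) numbered 70 with a pseudocount of 0.1, 177 with 10, 401 with DESeq2, 64 with the replicate block, 23 without both libraries numbered 3 and 17 to 105 without single libraries. Genes called lower (11) numbered 5 with a pseudocount of 0.1, 65 with DESeq2, 5 with the block, 3 in limma without trend, 3 without both libraries numbered 3 and 1 to 7 without single libraries. DESeq2 called 1 paralog, Mov10l1. The call in the list of other restriction genes went to 0 in limma without trend and was 0 to 1 without single libraries; that in the sensing list went to 0 in limma without trend, with the block and without both libraries numbered 3, and was 0 to 1 without single libraries. TE copies called lower within 10 kb (0) were 0 to 1 without single libraries, and 0 within the gene body, 20 kb and 50 kb. The causes were not tested.

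The replicate numbers are shared by het and KO samples, but same-numbered samples did not deviate together (correlations over genes of 0.14, -0.16 and -0.04), so the block describes a number and not a pairing. At 3 libraries per genotype the intervals of the 8 genes reach folds from 0.515 to 3.24.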
